A study of Homo sapiens with 22 samples.

Results

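The transcriptome of quercetin-treated cells was set against that of rutin-treated cells, a comparison of a flavonol with its own glycoside. Libraries were chosen by their titles, and 6 of the 22 libraries of the series carried 1 of these compounds, 3 with quercetin and 3 with rutin. All 6 came from LUHMES cells, a human embryonic midbrain line, immortalised by a switchable oncogene, that stops dividing and matures into dopaminergic-type neurons. The quercetin group overexpressed alpha-synuclein and received 6-hydroxydopamine (6-OHDA) and quercetin. The rutin group overexpressed alpha-synuclein and received 6-OHDA and rutin. A group of 4 libraries that overexpressed alpha-synuclein and received 6-OHDA with no compound (6-OHDA alone) is given beside them, so alpha-synuclein and 6-OHDA were common to every group described. The other 12 libraries, wild-type cells with and without 6-OHDA and untreated alpha-synuclein cells, entered the fit and are not described for their own sake. The sources used here state no dose, exposure time, promoter for alpha-synuclein or number of clones, so it is not known whether both compounds were applied at the same dose or for the same time.

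Quercetin is a plant flavonol, a polyphenol that scavenges radicals, binds metals and inhibits several kinases. Rutin is the same molecule with a disaccharide, rutinose, joined to a hydroxyl of its central ring. Sugars make flavonols more soluble in water and less able to cross membranes, and in the gut the sugar of rutin is removed mainly by bacteria. 6-OHDA is a dopamine analogue that oxidises readily, damages proteins and activates the unfolded protein response, in which chaperones of the endoplasmic reticulum (ER) are induced. The design text ties quercetin to CEBPB and rutin to a name read here as AKR1C3, and states that both were applied to test neuroprotection.

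Estimated counts summed to 6.39, 13.71 and 12.79 M (M, mega) in the quercetin libraries, to 7.48, 8.54 and 2.59 M in the rutin libraries, and to 2.52 to 18.61 M in the libraries of 6-OHDA alone. All 10 were on lane 2 by their library names, and the other 12 libraries of the series were on lane 1. Levels are given in CPM (counts per M of TMM-scaled library size), where 3 counts correspond to 0.196 to 0.422 CPM in quercetin libraries and 0.322 to 1.05 CPM in rutin libraries. Pairs of libraries correlated (Pearson, log2 CPM) at 0.9796 to 0.9853 within quercetin, 0.9585 to 0.9784 within rutin and 0.9565 to 0.9803 between the compounds. Replicate 3 of rutin was the shallowest of the 6 and lay apart on the first principal component, replicate 3 of quercetin had 3.18% of its counts in pseudogenes against at most 2% in the other 5, and replicate 4 of 6-OHDA alone had the lowest sample weight in voom (0.145). The summed level of 10 LUHMES neuron markers was 2630 to 2810 CPM with quercetin, 2550 to 2910 CPM with rutin and 2830 to 4350 CPM with 6-OHDA alone. Among them STMN2 and DCX were high, TH was moderate at 64.5 CPM ± 12.6 (SD, n = 3) with quercetin, and the dopamine transporter SLC6A3 was low at 5.89 CPM. In bulk RNA, fewer cells of a type and less RNA per cell cannot be told apart.

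Between quercetin-treated and rutin-treated cells, edgeR's quasi-likelihood test on all 22 libraries called 1 of 16601 genes tested (0.00602%). Calls were made at a Benjamini-Hochberg adjusted p under 0.05. That gene was SNCG, gamma-synuclein, a small neuronal protein of the synuclein family, and it was lower with quercetin. At an unadjusted p under 0.05 there were 1481 genes (8.92%), of which 660 were higher and 821 lower with quercetin. All 3 quercetin libraries lay above all 3 rutin libraries in 1500 genes (9.04%) and below them in 2102 (12.7%). Other tools called more genes, 126 with DESeq2 (1.83% of the 6902 genes it gave an adjusted p) and 799 with limma voom using sample weights (4.81% of 16601). The edgeR count also depended on replicate 4 of 6-OHDA alone, which is in neither compound group. Without that library edgeR called 58 genes (0.353%), of which voom on all libraries called all 58 and DESeq2 called 35. Counts of called genes below are edgeR's unless another tool is named. Between the compounds, its share over all genes in the 22-library fit was 0.00602%, which applies to each list below. Over all genes tested, 9099 log2 changes were negative and 7500 positive.

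SNCG (ENSG00000173267.14, GRCh38 chr10:86958618-86963260, plus strand, protein coding) had 27.1, 31.5 and 28.7 CPM in the quercetin libraries, against 64.6, 54.8 and 51.1 CPM in the rutin libraries. The groups did not overlap, and the highest quercetin library was well under the lowest rutin library. These levels rested on 193, 482 and 409 counts with quercetin and 529, 511 and 146 counts with rutin. The difference was -0.97 ± 0.14 on the log2 scale (SE, 95% interval -1.26 to -0.68, n = 3 each, edgeR adjusted p = 0.0101), which is a level of 0.511 of that with rutin. With 6-OHDA alone SNCG had 50.8, 61.4, 40.7 and 64.3 CPM, a range that holds all rutin libraries but 1 and lies above every quercetin library. Against those 4 libraries, which both comparisons share, the log2 change was -0.90 ± 0.13 with quercetin (edgeR adjusted p = 0.00398) and 0.07 ± 0.13 with rutin (edgeR adjusted p = 0.913).

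**Figure D1:**
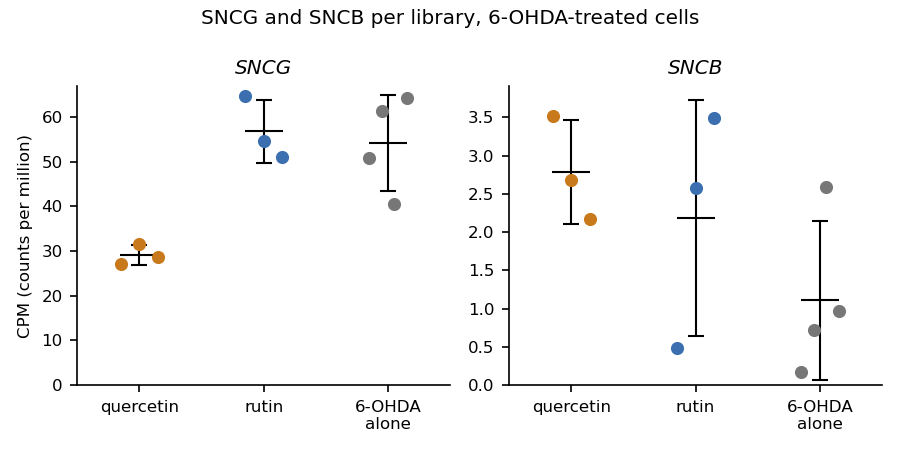
Levels of SNCG (left) and SNCB (right) in CPM in each quercetin, rutin and 6-OHDA-alone library (points), with the group mean and SD (bars). For SNCG the quercetin points lie between 27.1 and 31.5 CPM, under every other point, while for SNCB the groups overlap.

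SNCB, beta-synuclein, was not called and was near the limit of detection, at 3.5, 2.7 and 2.2 CPM with quercetin and 0.5, 2.6 and 3.5 CPM with rutin, and its interval of -1.16 to 2.08 was too wide to bound a 2-fold difference in either direction. The SNCG call was kept under 14 of 20 settings. The log2 change of SNCG stayed between -1.03 and -0.86 under all 20 settings. Its adjusted p in edgeR was 0.139 without replicate 1 of quercetin, 0.0661 without replicate 3 of quercetin and 0.162 without replicate 1 of rutin. The adjusted p was 0.0646 in edgeR with counts thinned to the shallowest compound library and 0.154 with the 10 lane 2 libraries alone.

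For most genes the data bound the difference between the compounds rather than show one. Over the 16599 genes with a standard error, the median absolute log2 change was 0.169 and the median half-width of the 95% interval was 0.436. Of the 11884 genes with at least 5 CPM in either compound group, 10891 (91.6%) had an interval within a log2 change of 1 in both directions, and 7447 (62.7%) within 1.5-fold. A change of at least 2-fold was estimated for 382 genes, of which 301 were under 5 CPM in both groups. A p that misses the threshold does not show that the compounds act alike, and 1 pair of compounds was compared.

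**Figure D2:**
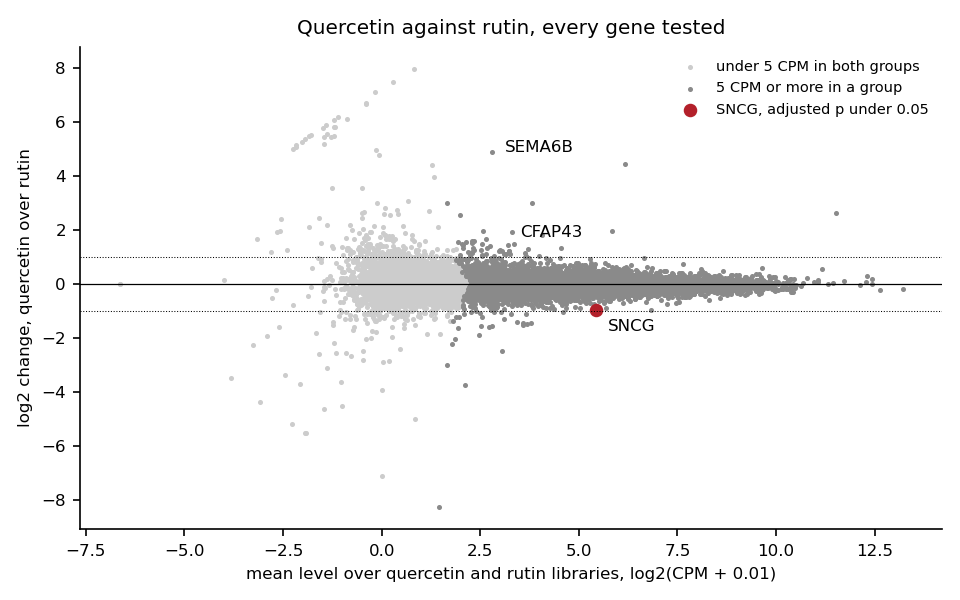
Log2 change of quercetin over rutin for every gene tested (vertical axis) against the mean level over the 6 compound libraries, log2(CPM + 0.01) (horizontal axis), with dotted lines at 2-fold. SNCG is the called gene, and points spread widely at low levels and narrowly at high levels.

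Neither transcript that the design text ties to a compound was called. CEBPB, a stress-responsive transcription factor, had 46.0, 53.1 and 38.6 CPM with quercetin, against 42.7, 49.8 and 55.99 CPM with rutin. The groups overlapped, and the log2 difference was -0.10 (95% interval -0.41 to 0.21, edgeR adjusted p = 0.911). AKR1C3, an aldo-keto reductase that reduces steroids and prostaglandins, was sparse at 0.7, 1.7 and 2.8 CPM with quercetin, against 2.1, 2.1 and 1.0 CPM with rutin. Its interval of -0.97 to 0.88 was wide, and its reads may be shared with the near-identical AKR1C1 and AKR1C2. TH, tyrosine hydroxylase of dopamine synthesis, differed by 0.06 (95% interval -0.30 to 0.41). Among 9 aldo-keto reductases and 4 C/EBP genes tested, 0 were called (0.00602% of all genes were).

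The genes of ER protein folding were the list with the lowest median, -0.22 over 16 genes tested of 17 (HSPA5 was not analysed here), against -0.03 over all genes tested. None passed the test between the compounds. Of the 16, 12 had a negative log2 change, as had 9099 of all 16601 genes tested. Of the 16, 6 had an unadjusted p under 0.05 with a negative change (821 of all genes, 4.95%), and 8 had every quercetin library below every rutin library (12.7% of all genes). Against 6-OHDA alone, 8 of the 16 fell with quercetin (420 of all genes, 2.53%, were called, and 1.97% were called lower) and 0 changed with rutin (1 with DESeq2, HYOU1, where DESeq2 called 4.62% of the genes it gave an adjusted p), where 0 of all genes (0%) were called and 1790 (10.8%) had an unadjusted p under 0.05. The median log2 change of the list was -0.60 with quercetin and -0.28 with rutin. Both comparisons share the libraries of 6-OHDA alone, and a call with 1 compound and none with the other is not a difference between them.

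Several of these genes carry the sequences through which the unfolded protein response is known to act, and the 250 bases before the RefSeq start (GRCh38.p14) are printed for 4 genes, 3 of the folding list and HERPUD1, that fell with quercetin against 6-OHDA alone and hold such a match. HSP90B1 is at chr12:103930160-103930409 (plus strand), CALR at chr19:12938359-12938608 (plus), HYOU1 at chr11:119057206-119057455 (minus) and HERPUD1 at chr16:56931892-56932141 (plus). Capitals mark the fixed letters of the ER stress element (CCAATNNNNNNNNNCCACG), the ER stress element II (ATTGGNCCACG) and the XBP1 element (TGACGTGG), on either strand. The last 2 overlap in HYOU1.
HSP90B1: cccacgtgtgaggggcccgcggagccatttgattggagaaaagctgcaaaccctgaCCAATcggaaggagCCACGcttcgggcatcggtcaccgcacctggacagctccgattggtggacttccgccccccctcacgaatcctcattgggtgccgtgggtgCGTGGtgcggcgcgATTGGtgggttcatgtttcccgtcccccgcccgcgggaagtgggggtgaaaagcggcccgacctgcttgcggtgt
CALR: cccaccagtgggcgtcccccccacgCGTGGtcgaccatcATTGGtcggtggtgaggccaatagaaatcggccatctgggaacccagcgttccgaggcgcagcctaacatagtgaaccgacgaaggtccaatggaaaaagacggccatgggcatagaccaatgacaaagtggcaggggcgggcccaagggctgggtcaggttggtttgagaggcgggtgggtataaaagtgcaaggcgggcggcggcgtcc
HYOU1: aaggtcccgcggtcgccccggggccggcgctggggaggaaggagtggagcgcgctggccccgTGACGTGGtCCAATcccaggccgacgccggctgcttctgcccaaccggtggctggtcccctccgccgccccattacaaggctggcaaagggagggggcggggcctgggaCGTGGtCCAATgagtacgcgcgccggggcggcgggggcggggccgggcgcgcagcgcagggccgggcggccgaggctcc
HERPUD1: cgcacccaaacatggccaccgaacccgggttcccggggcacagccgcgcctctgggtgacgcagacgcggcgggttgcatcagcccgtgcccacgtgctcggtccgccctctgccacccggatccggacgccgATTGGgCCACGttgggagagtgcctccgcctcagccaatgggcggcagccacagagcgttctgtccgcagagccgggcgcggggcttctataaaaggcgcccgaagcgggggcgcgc

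Over 35116 RefSeq promoter windows of 300 bases (250 before and 50 after the start), the ER stress element was in 27 (0.0769%), the second form in 19 (0.0541%) and the XBP1 element in 256 (0.729%). Of the 15 genes of the ER folding list that matched a window, 5 held the ER stress element, namely HSP90B1, CALR, CANX, CRELD2 and XBP1. HYOU1 and SDF2L1 held the second form, HYOU1 also held the XBP1 element, and HERPUD1 of the list of ER-associated degradation held the second form. The genes with the first element differed in their values: HSP90B1 and CALR fell with quercetin against 6-OHDA alone, while CANX (-0.28), CRELD2 (-0.48) and XBP1 (-0.18) did not pass. Conversely, DNAJB11, MANF, PDIA4 and PDIA6 fell with quercetin against 6-OHDA alone and held none of these elements. PDIA3 also fell and had no window to search. A match describes letters in a window, and nothing about binding was measured.

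Among the luminal chaperones, HSP90B1 (GRP94, the ER form of HSP90) had 69.6, 76.5 and 95.8 CPM with quercetin, against 120.9, 151.9 and 114.8 CPM with rutin. The compound groups did not overlap. The log2 difference was -0.68 ± 0.27 (95% interval -1.23 to -0.13, edgeR adjusted p = 0.427), which did not pass. With 6-OHDA alone it had 139.9, 171.9, 150.9 and 228.8 CPM, above every compound library but 1 with rutin, and its log2 change was -1.10 with quercetin (edgeR adjusted p = 0.026) and -0.42 with rutin (edgeR adjusted p = 0.578). HYOU1, an HSP70-like chaperone, differed from this, with 66.9, 72.2 and 81.6 CPM with quercetin, against 75.8, 91.5 and 74.9 CPM with rutin. Its compound groups overlapped, with a log2 difference of -0.14 (95% interval -0.47 to 0.20), and both compounds had negative changes against 6-OHDA alone, -0.60 with quercetin (edgeR adjusted p = 0.0361) and -0.47 with rutin (edgeR adjusted p = 0.258).

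DNAJB11, a co-chaperone of the ER HSP70, had 167.9, 178.2 and 183.7 CPM with quercetin, against 245.0, 282.0 and 208.2 CPM with rutin. The groups did not overlap, with a log2 difference of -0.48 (95% interval -0.87 to -0.08, edgeR adjusted p = 0.444). CALR, calreticulin, which folds glycoproteins and buffers calcium, had 1100.6, 1197.5 and 1247.1 CPM with quercetin, against 1441.1, 1694.7 and 1257.1 CPM with rutin. Here the highest quercetin library lay just under the lowest rutin library, and the interval of -0.65 to 0.03 included 0. CANX, calnexin, the membrane partner of calreticulin, had a log2 difference of -0.01 (95% interval -0.40 to 0.38).

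Protein disulfide isomerases, which form and shuffle disulfide bonds, did not all lie on one side. PDIA3, which acts with calreticulin, had 488.4, 513.0 and 534.1 CPM with quercetin, against 679.0, 760.6 and 606.5 CPM with rutin, without overlap and with a log2 difference of -0.42 (95% interval -0.74 to -0.09, edgeR adjusted p = 0.423). PDIA6 differed by -0.52 (95% interval -0.96 to -0.09) and PDIA4 by -0.46 (95% interval -0.85 to -0.08), with adjusted p of 0.448 and 0.447 in edgeR. P4HB, a further isomerase, had a positive estimate of 0.17 (95% interval -0.12 to 0.47) and was not called against 6-OHDA alone with either compound.

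MANF, a neurotrophic factor that is retained in the ER and secreted under stress and protects dopaminergic neurons in rodent models, had 126.6, 111.9 and 134.6 CPM with quercetin, against 182.9, 199.9 and 156.4 CPM with rutin. The compound groups did not overlap, and the log2 difference was -0.54 ± 0.20 (95% interval -0.95 to -0.13, edgeR adjusted p = 0.39). With 6-OHDA alone MANF had 143.6, 165.5, 206.1 and 344.5 CPM, a wide range that covers the rutin libraries and lies above the quercetin libraries. Among the sensors and factors of the pathway, XBP1, the factor spliced by IRE1, differed by -0.13 (95% interval -0.31 to 0.05). ATF6 was near the limit of detection.

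The ER values depended on single libraries. Replicate 4 of 6-OHDA alone was the highest of its group for all 8 genes that fell with quercetin. Without it, 2 of the 16 genes fell with quercetin against 6-OHDA alone (0.511% of all genes were called), while 3 were called lower between quercetin and rutin (0.353% of all genes were called), PDIA3 at -0.42 (edgeR adjusted p = 0.0348), MANF at -0.54 (edgeR adjusted p = 0.0348) and DNAJB11 at -0.48 (edgeR adjusted p = 0.0472). That library is in neither compound group, and these log2 differences were the same to 2 decimals with and without it. Without replicate 1, 2 or 3 of quercetin, 0 of the 16 were called against 6-OHDA alone, in fits that called 0.574%, 0.154% and 0.432% of all genes. The count was also 0 with the lane 2 libraries alone, where 4 genes in all (0.0251%) were called, and with a replicate block, where 0.723% were. Between the compounds limma voom called 4 of the 16 (PDIA3, MANF, DNAJB11 and PDIA6), against 4.81% of all genes.

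**Figure D3:**
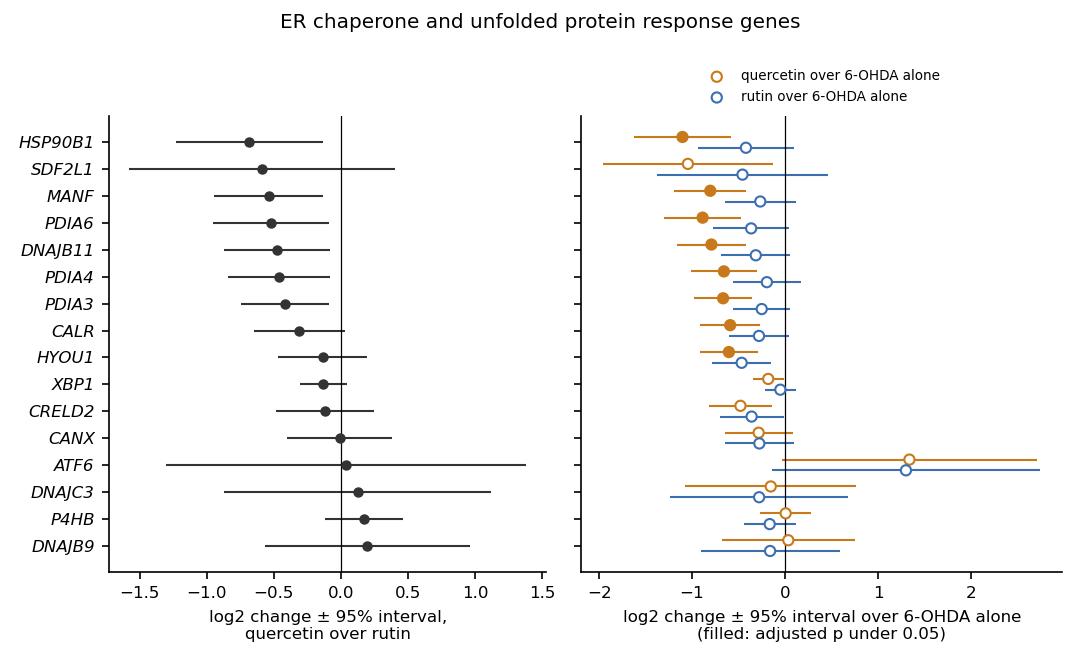
Log2 changes with 95% intervals of 16 ER folding genes, quercetin over rutin (left) and each compound over 6-OHDA alone (right, filled where the adjusted p was under 0.05). In the left panel 12 points lie below 0 and none passed the test, and in the right panel 8 quercetin points are filled and no rutin point is.

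In ER-associated degradation, which returns misfolded proteins to the cytosol, 0 of 14 genes were called between the compounds by edgeR or DESeq2. Voom called 1, SELENOS, against 4.81% of all genes. Of the 14 genes, 11 had negative changes (median -0.20). SELENOS, a selenoprotein of the retrotranslocation complex, had 27.3, 26.7 and 22.7 CPM with quercetin, against 34.3, 36.8 and 28.7 CPM with rutin, without overlap (log2 difference -0.40, 95% interval -0.68 to -0.12, edgeR adjusted p = 0.352). HERPUD1, which assembles that complex, differed by -0.21 (95% interval -0.46 to 0.05), and SYVN1, its ubiquitin ligase, by -0.13 (95% interval -0.36 to 0.09). Both fell with quercetin against 6-OHDA alone (-0.57 and -0.61) and had negative values with rutin that did not pass in edgeR (-0.36 and -0.47) and passed in DESeq2.

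The proteasome, which degrades the proteins exported in this way, had 19 of 24 genes with negative changes and 9 with all quercetin libraries below all rutin libraries (12.7% of all genes), with a median of -0.20. In this list edgeR called 0 genes between the compounds, DESeq2 1 (PSMA2) and voom 3 (PSMA1, PSMA2 and PSMD4). Over all genes, DESeq2 called 1.83% of those it gave an adjusted p, and voom called 4.81%. PSMA2, a subunit of its outer ring, had 25.9, 27.1 and 28.1 CPM with quercetin, against 37.6, 39.7 and 51.1 CPM with rutin. The groups did not overlap, and 6-OHDA alone lay between them at 31.2, 30.9, 31.7 and 33.9 CPM. Its log2 difference was -0.65 ± 0.13 (95% interval -0.92 to -0.37, edgeR adjusted p = 0.0914), and the adjusted p was 0.0371 in edgeR without replicate 4 of 6-OHDA alone, 0.00215 in DESeq2 and 0.00312 in voom. Against 6-OHDA alone the list's median was 0.01 with quercetin and 0.17 with rutin, with 0 called in either comparison.

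In the stress pathways of the cytosol edgeR called 0 genes between the compounds, while DESeq2 called DDIT3 and voom called DDIT3, MTHFD2, STC2, SLC7A11 and BAG3. Over all genes, DESeq2 called 1.83% of those it gave an adjusted p, and voom called 4.81%. Of 20 targets of NRF2, the antioxidant transcription factor, all 20 had an interval within 2-fold in both directions, and the median was -0.04. Over all genes 74.8% had such an interval, and 91.6% of those with at least 5 CPM. In this list HMOX1 (haem oxygenase) differed by 0.12, NQO1 (quinone reductase) by -0.07 and GCLM (glutathione synthesis) by -0.02. SLC7A11, the cystine transporter that feeds glutathione synthesis, had 145.7, 154.8 and 152.5 CPM with quercetin, against 199.4, 215.0 and 210.7 CPM with rutin and 228.2 to 417.2 CPM with 6-OHDA alone. Its 3 groups did not overlap, with quercetin lowest. The log2 difference between the compounds was -0.46 (95% interval -0.91 to -0.02, edgeR adjusted p = 0.543, 0.0487 when only the 6 compound libraries were fitted, and 0.0172 in voom), and against 6-OHDA alone it fell with quercetin (-0.94, edgeR adjusted p = 0.0218) and was -0.47 with rutin (edgeR adjusted p = 0.398).

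The integrated stress response, which ATF4 drives, had 10 positive and 10 negative changes in 20 genes and a median of -0.03. DDIT3, the pro-apoptotic factor CHOP, had 97.4, 90.2 and 89.7 CPM with quercetin, against 111.3, 113.5 and 114.1 CPM with rutin. The groups were tight and did not overlap, yet the log2 difference of -0.29 (95% interval -0.45 to -0.13) did not pass in edgeR (adjusted p = 0.203) and passed in DESeq2 (adjusted p = 0.0171) and voom (adjusted p = 0.0043). MTHFD2, a mitochondrial folate enzyme, differed by -0.38 (95% interval -0.71 to -0.05). Among 12 heat shock genes the median was 0.06, with 8 positive and 4 negative changes. HSPD1 had the lowest value, with 131.1, 102.3 and 102.2 CPM with quercetin, against 142.7, 223.2 and 194.2 CPM with rutin. Its groups did not overlap (-0.74, 95% interval -1.33 to -0.15, edgeR adjusted p = 0.424). BAG3, a co-chaperone of selective autophagy, had 349.6, 336.0 and 270.1 CPM with quercetin, against 222.5, 207.2 and 288.7 CPM with rutin, which overlapped (0.42, 95% interval 0.07 to 0.77, adjusted p = 0.454 in edgeR and 0.00951 in voom).

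The enzymes and carriers that handle flavonols were compared because the compounds differ by a sugar. Of 20 genes tested in this list 0 were called (0.00602% of all genes were), and the median was 0.02. Of the 20, 18 had an interval within 2-fold in both directions. Over all genes 74.8% had such an interval, and 91.6% of those with at least 5 CPM. The quinone reductase NQO2 differed by -0.32 (95% interval -0.60 to -0.03) and the glucose carrier SLC2A1 by 0.21 (95% interval 0.01 to 0.41). For the aryl hydrocarbon receptor, a sensor of planar aromatic compounds, 6 of 10 pathway genes could be tested and 0 were called (0.00602% of all genes). Its usual reporter CYP1A1 was not among them. Of the 6, 4 had positive and 2 negative changes, with AHRR highest at 0.87 (95% interval 0.15 to 1.59, edgeR adjusted p = 0.447). AHRR was low, at 3.5, 2.9 and 2.0 CPM with quercetin and 1.1, 2.3 and 0.7 CPM with rutin, which overlapped. A separate gene entry of the same name differed by 0.14 (95% interval -0.28 to 0.55).

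Of the signalling lists, NF-kappaB genes had the highest median, 0.23 over 11 genes, with 0 called (0.00602% of all genes were). RELB, a subunit of the non-canonical pathway, had 10.0, 11.8 and 8.8 CPM with quercetin, against 7.6, 6.3 and 6.3 CPM with rutin and 2.8 to 6.1 CPM with 6-OHDA alone. The 3 groups did not overlap, but the log2 difference between the compounds of 0.59 (95% interval 0.11 to 1.08, edgeR adjusted p = 0.44) did not pass, while quercetin against 6-OHDA alone did (1.14, edgeR adjusted p = 0.0131). IRS1, the insulin receptor substrate that activates PI3K, had 36.1, 34.9 and 34.6 CPM with quercetin, against 24.6, 22.1 and 23.8 CPM with rutin. The groups did not overlap (0.59, 95% interval 0.25 to 0.92), with an adjusted p of 0.218 in edgeR, 0.0244 in DESeq2 and 0.0124 in voom. NGFR, the p75 neurotrophin receptor, was above every library of 6-OHDA alone with both compounds, at 17.6, 11.1 and 12.6 CPM with quercetin and 10.1, 7.7 and 10.1 CPM with rutin, against 7.1, 1.1, 2.6 and 1.6 CPM with 6-OHDA alone. Its log2 difference between the compounds was 0.56 (95% interval -0.21 to 1.33), and against 6-OHDA alone it was 2.12 with quercetin (edgeR adjusted p = 0.0107) and 1.56 with rutin (edgeR adjusted p = 0.172).

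Among 22 pan-neuronal and synaptic genes edgeR and DESeq2 called SNCG and voom called SNCG, NEFH, TUBB3 and ELAVL3. Over all genes, DESeq2 called 1.83% of those it gave an adjusted p, and voom called 4.81%. Of the 22 genes, 13 had positive changes, and 6 had an unadjusted p under 0.05 with a positive change (660 of all genes, 3.98%). These were the cytoskeletal genes MAPT (0.44), TUBB3 (0.26), NEFH (0.25) and NEFM (0.18), the synapsin SYN1 (0.33) and the RNA-binding protein ELAVL3 (0.27). NEFH, the heavy neurofilament, had 548.3, 580.9 and 547.9 CPM with quercetin, against 469.8, 510.0 and 431.2 CPM with rutin, without overlap (95% interval 0.04 to 0.46, edgeR adjusted p = 0.467). SYP, synaptophysin, had the opposite sign at -0.16 (95% interval -0.36 to 0.05). Of 17 dopaminergic genes edgeR called 0, and DESeq2 and voom called 1, the homeobox gene EN2. Its log2 difference was 0.47 (95% interval 0.18 to 0.76), with an adjusted p of 0.27 in edgeR, 0.0188 in DESeq2 and 0.00495 in voom.

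Across all 27 gene lists, with 426 entries for 406 genes tested, edgeR called SNCG alone between the compounds, DESeq2 called 8 genes (SNCG, PSMA2, DDIT3, EN2, IRS1, SEMA6A, RPL7 and SLC39A6) and voom called 29. Over all genes, DESeq2 called 1.83% of those it gave an adjusted p, and voom called 4.81%. Ribosomal protein mRNAs had a median of -0.11, with 15 of 24 negative (9099 of 16601 over all genes). Mitochondrially encoded mRNAs had a median of 0.20, with 12 of 13 positive (7500 of 16601 over all genes) and 0 without overlap between the compounds. Cholesterol synthesis (-0.05), p53 targets (-0.03), hypoxia and glycolysis (-0.04) and autophagy and lysosome genes (-0.06) lay near the median of all genes. BCL2 family genes (0.08) and axon guidance genes (0.13) lay slightly above it.

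**Figure D4:**
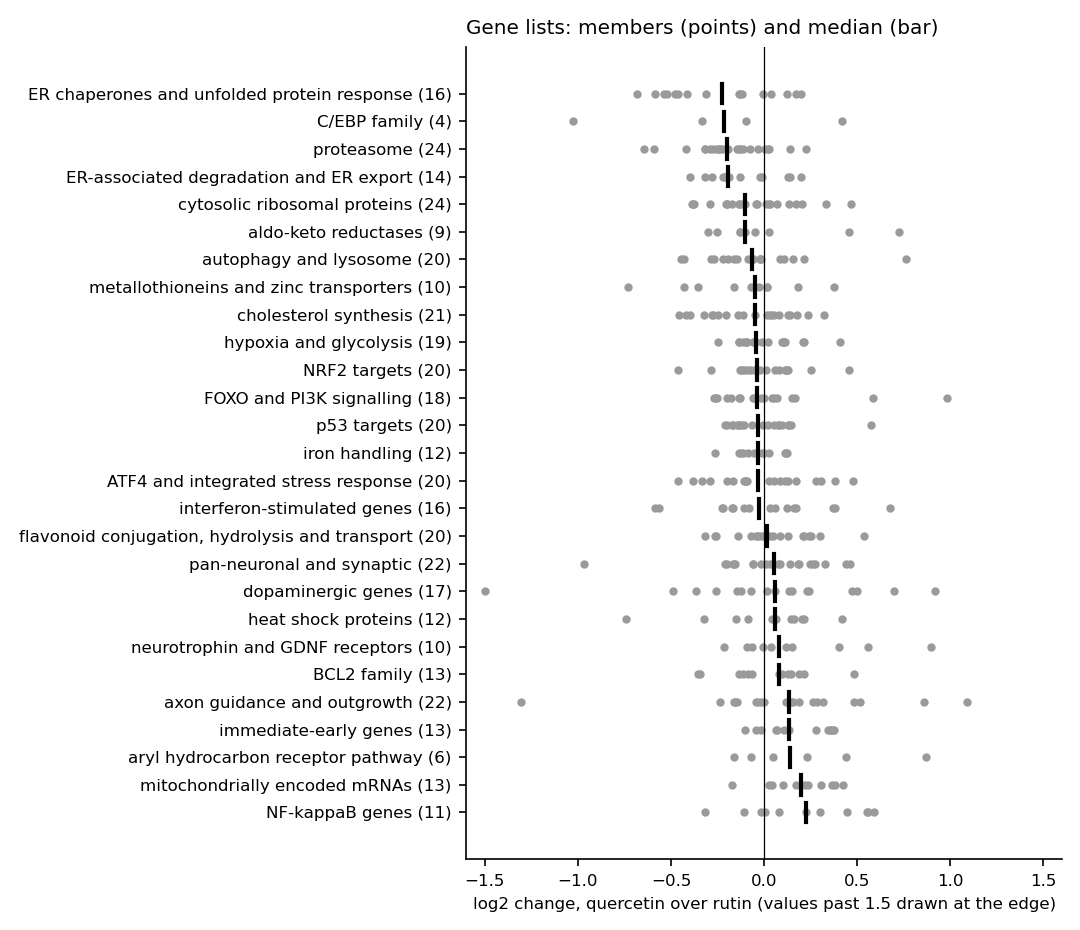
Log2 change of quercetin over rutin for the members of 27 gene lists (points, with the number tested in brackets) and the list median (bars), ordered from the lowest median at the top. Medians run from -0.22 for ER folding genes to 0.23 for NF-kappaB genes.

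Transcript GC content moved with the difference between the compounds. Over 11870 genes of at least 5 CPM with a sequence, Spearman's rho between GC and the log2 change was 0.291, across genes that are not independent replicates. The median log2 change was -0.15 in the 2374 genes with the lowest GC (median 40.3%) and 0.03 in the 2374 with the highest (62.1%), out of 5 groups ordered by GC. Replicates 1 and 2 of quercetin showed a rise with GC and replicate 3 of quercetin did not, while all 3 rutin libraries were highest in the group with the lowest GC. SNCG, at 61.7% GC, was in the group with the highest GC, where the median change was 0.03. ER folding genes had a median GC of 48.1% and a median change of -0.24 relative to genes of the same GC group, against -0.11 for proteasome genes at 46.0%. The part of GC in the differences was not tested, for SNCG or for any other gene.

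**Figure D5:**
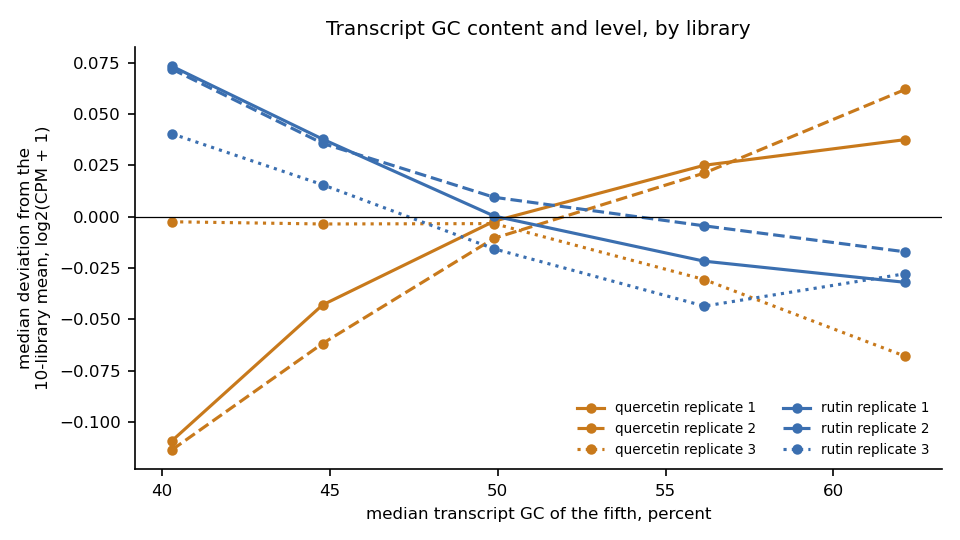
Median deviation of each quercetin and rutin library from the mean of the 10 lane 2 libraries, log2(CPM + 1), in 5 groups of genes ordered by median transcript GC in percent. Replicates 1 and 2 of quercetin slope upward and replicates 1 and 2 of rutin slope downward.

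The genes given next lie outside the lists and came close to the threshold. They are examples chosen after their values were seen and not a full list of such genes. CFAP43, a protein of motile cilia, had 13.8, 12.2 and 14.2 CPM with quercetin, against 4.5, 5.6 and 4.5 CPM with rutin, without overlap (1.44 ± 0.25, edgeR adjusted p = 0.0687). CCER2 had 36.8, 39.5 and 36.5 CPM with quercetin, against 58.9, 60.9 and 67.9 CPM with rutin (-0.72, edgeR adjusted p = 0.0687). ENO3, the muscle form of the glycolytic enzyme enolase, had 67.1, 58.0 and 57.9 CPM with quercetin, against 94.7, 90.2 and 101.8 CPM with rutin (-0.65, edgeR adjusted p = 0.077). For all 3 the libraries of each compound lay close together and apart from those of the other, and each passed in edgeR when replicate 4 of 6-OHDA alone was left out, at adjusted p of 0.00976, 0.000367 and 0.0041. All 3 also passed in voom, and CCER2 and ENO3 in DESeq2, which gave CFAP43 no adjusted p.

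SEMA6B, a transmembrane semaphorin that guides axons, had a large log2 difference between the compounds that did not pass the test. It had 14.6, 12.9 and 13.0 CPM with quercetin (104, 197 and 186 counts), against 0.5, 0.4 and 0.3 CPM with rutin (4, 4 and 1 counts). The log2 difference was 4.89 (95% interval 2.60 to 7.18, edgeR adjusted p = 0.110 in the fit of 22 libraries). In the fit of the 6 compound libraries alone, 19 genes were called and SEMA6B was first among them at 4.92 (edgeR adjusted p = 0.000114). With 6-OHDA alone its level ran from 1.0 to 20.0 CPM, at 1.0, 7.5, 13.9 and 20.0 CPM, so libraries of 1 group spanned most of the distance between the compounds. SEMA6A, of the same family, had 251.1, 275.2 and 271.2 CPM with quercetin, against 224.6, 228.7 and 210.7 CPM with rutin (0.26, 95% interval 0.07 to 0.45).

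Among markers of other cell types edgeR and DESeq2 called 0 between the compounds, and voom called TOP2A of the cycling and PTPRC of the microglia markers (4.81% of all genes were called by voom). The summed level of 8 microglia markers was 13.1 to 17.9 CPM with quercetin, 10.7 to 14 CPM with rutin and 7.95 to 16.2 CPM with 6-OHDA alone, and 5 of the 8 were under 1 CPM in both compound groups. Astrocyte markers summed to 67.2 to 75.3 CPM with quercetin and 62.1 to 84.1 CPM with rutin, and cycling and progenitor markers to 235 to 291 CPM with quercetin and 234 to 363 CPM with rutin, mostly from VIM. Fibroblast and mesenchymal markers summed to at least 93.8 CPM with quercetin and at least 106 CPM with rutin, led by FN1, and oligodendrocyte markers to 68.6 to 75.8 CPM with quercetin and 71.1 to 73.4 CPM with rutin, led by OLIG2. The part of these markers in the differences was not tested.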

How the data were processed

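RNA isolation used an InnuPREP kit and library preparation an MGIEasy kit, per the labels' protocols. The values are estimated counts per Ensembl gene, deposited by the authors as whole numbers without normalisation. The submitters' processing notes list Trimmomatic 0.38, kallisto 0.46.2, GRCh38 and hg38. For gene summing and for strand use, details were not given in the sources used here. Because kallisto shares out reads with several matches, near-identical and overlapping genes are uncertain.

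The test ran in R 4.3.3 with edgeR 4.0.16, on genes passing filterByExpr at a minimum count of 10 (16601 genes, leaving aside 0.174% of counts), with TMM scaling. Group means of all 22 libraries were fitted with glmQLFit and glmQLFTest, which gives the 6 groups a common spread across both lanes. Calls are at an adjusted p under 0.05 (Benjamini-Hochberg). SEs were worked out from log2 change and F, and 2 genes had none. GENCODE 29 on GRCh38 gave positions and transcript GC (34658 of 34679 IDs matched without version), and RefSeq gave promoters. Alternatives used DESeq2 1.42.0, limma 3.58.1 and other libraries, scaling, depth and filters. Library pairs within a compound differed by more than sampling noise (chi-square per degree of freedom 3.093 to 15.3). The labels do not say whether libraries are separate cultures. The p-values and intervals therefore measure only how far these samples vary, which may be technical. DESeq2 filtering was set to the calling threshold of 0.05 after its count at the default had been seen.

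Of 485 entries in 27 gene lists 470 were found and 426 tested, and of 57 entries in 6 marker lists 42 were tested. Comparison, lists and rule were chosen with earlier results of these data known. The rule named CEBPB, AKR1C3 and TH, called genes of 5 CPM or more without overlap between libraries (up to 15 each way), called list members, the 2 list members ranking first by adjusted p in each list, and members called against 6-OHDA alone. The text gives part of these, and 1 fixed gene and 1 list member are not reported here. Other list members were named as examples after their values were seen, as were SNCB, SEMA6B, CFAP43, CCER2 and ENO3.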

Additional observations from a re-analysis of the deposited data

Results flagged for a closer look

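SNCG changed differently with quercetin and with rutin relative to 6-OHDA alone, by a test of the difference itself, with a log2 difference of -0.97 (edgeR adjusted p = 0.0101, lower in 3 of 3 quercetin libraries than in every rutin library).

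Single libraries lay far from the rest of their group in 8 of 65 measures examined among the 4 libraries of 6-OHDA alone, where chance flags about 1 in 20. The measures were mostly genes chosen for the text, and all come from the same 4 libraries. They are therefore not independent, and the count cannot be weighed against that rate. Genes not chosen for the text were not examined. Replicate 4 was far from the other 3 for BAG3 (118.6 CPM, low), CCER2 (87.53 CPM, high), ENO3 (117.8 CPM, high), PDIA3 (1207 CPM, high), ROBO2, an axon guidance receptor (1172 CPM, high), and SEMA6A (310.2 CPM, high). Replicate 2 was low for NQO2 (15.43 CPM) and for the ribosomal protein gene RPLP0 (338.1 CPM). Groups of 3, which include both compounds, were not examined in this way.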

How the results depend on the processing

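Between quercetin and rutin, where the 22-library edgeR fit called 1 gene, 8 were called with no low-count filter, 19 in the 6 compound libraries alone, 126 with DESeq2 and 799 with voom, against 0 with the lane 2 libraries alone and 0 with counts thinned to the shallowest compound library. Leaving out 1 library gave 0 to 58 calls, with 58 (30 higher, 28 lower) without replicate 4 of 6-OHDA alone. For quercetin against 6-OHDA alone (420 calls) there were 4 in lane 2 alone, 264 thinned, 995 with DESeq2 and 26 to 896 without 1 library. These were 98, 26 and 73 without replicates 1, 2 and 3 of quercetin, 84 without replicate 4 of 6-OHDA alone, 896 without its replicate 1 and 727 without its replicate 3. For rutin against 6-OHDA alone (0 calls) there were 2 with RLE size factors, 4 with no filter, 1 thinned, 292 with DESeq2 and 0 to 143 without 1 library (143 without replicate 1 of 6-OHDA alone, 41 without its replicate 3).

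No pairing of libraries by replicate number was seen. After removal of group means, correlations of same-numbered quercetin and rutin libraries were -0.00846, 0.0526 and -0.0373. Those of differently numbered libraries ran from -0.0558 to 0.0503. Whether a weak pairing exists cannot be told from these values. With a replicate block there was 1 call between the compounds in the 22 libraries (SNCG) and 1 in the 6 (SEMA6B), 120 for quercetin and 0 for rutin against 6-OHDA alone, and SNCG had an adjusted p of 0.14 in the 6 libraries.

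The sign turned round for CEBPB with voom (0.01673), and for values near 0 when 1 library was left out, where SNCB ran from -0.09105 to 0.819, CEBPB from -0.217 to 0.01334, AKR1C3 from -0.549 to 0.265 and TH from -0.105 to 0.193. Depth limits genes under 5 CPM most, and the dose of each compound is not known.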
